A study of Mus musculus with 10 samples.

Results

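Camk2d encodes the delta subunit of calcium/calmodulin-dependent protein kinase II (CaMKII), the predominant form of this kinase in heart muscle. The sheet of downregulated mRNA probes that names genes held 1 probe for Camk2d among the 690 probes and 674 genes at hand. That probe is described here on every array. Any other Camk2d probe on the array could not be named from this sheet, so whether others changed is not known here. Hearts came from male wild-type C57BL/6 mice. The 3m group held 5 mice at 3 months of age and the 20m group 5 mice at 20 months, and no treatment is named for either. Each mouse was a separate donor and was measured on its own array. Per the methods the young and the aged mice came from different suppliers, so age and supplier cannot be told apart. The study asked which mRNAs and long non-coding RNAs differ between young and aged hearts.

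CaMKII is switched on when calcium rises in the cell and binds calmodulin, and it can then phosphorylate itself and stay active after calcium has fallen. In cardiomyocytes it phosphorylates the ryanodine receptor, phospholamban and the L-type calcium channel, and so tunes the release and the reuptake of calcium at each beat. It also phosphorylates class II histone deacetylases, which links calcium to transcription in hypertrophy. Camk2d is spliced into variants that differ in where the kinase sits in the cell, so it matters which transcript a probe reads.

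The probe is a 60-base oligonucleotide that the sheet assigns to transcript ENSMUST00000199300 of gene ENSMUSG00000053819, on the plus strand of chromosome 3 from 126597007 to 126846326. This transcript is 5524 bases long, is listed as not canonical and is paired with the RefSeq transcript NM_001025438. The sheet names no genome build, and its coordinates were taken as GRCm38 because the transcript ends at the same base as Camk2d in the RefSeq table of GRCm38.p6. There the gene runs from 126595487 to 126846326, so the transcript begins 1520 bases inside it. The RefSeq table lists 40 Camk2d transcripts, 9 of them curated and 31 predicted, and includes the one named. The first 30 bases of the probe are shown to identify what was measured.
Camk2d probe, bases 1 to 30: tctgctgacaatgtgtccatttttatttct
The values below stand for RNA that holds the probe sequence. Which of the other Camk2d transcripts hold it, and whether it lies in coding or untranslated sequence, was not determined here. The total Camk2d message and the kinase protein were not measured by it.

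The Camk2d probe was dimmer in all 5 aged hearts than in any young heart. Its processed intensity, which the scanner software gives after subtracting local background and before any scaling between arrays, was 136, 173, 132, 121 and 110 in replicates 1 to 5 of the 3m group. In replicates 1 to 5 of the 20m group it was 26.9, 19.9, 15.8, 26.8 and 26.5. The groups did not overlap, and the brightest aged heart lay far below the dimmest young one. The means were 134 ± 24.0 and 23.2 ± 5.08 (SD, n = 5 each). In bulk tissue, less of this RNA per cell and fewer cells that carry it cannot be told apart.

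**Figure D1:**
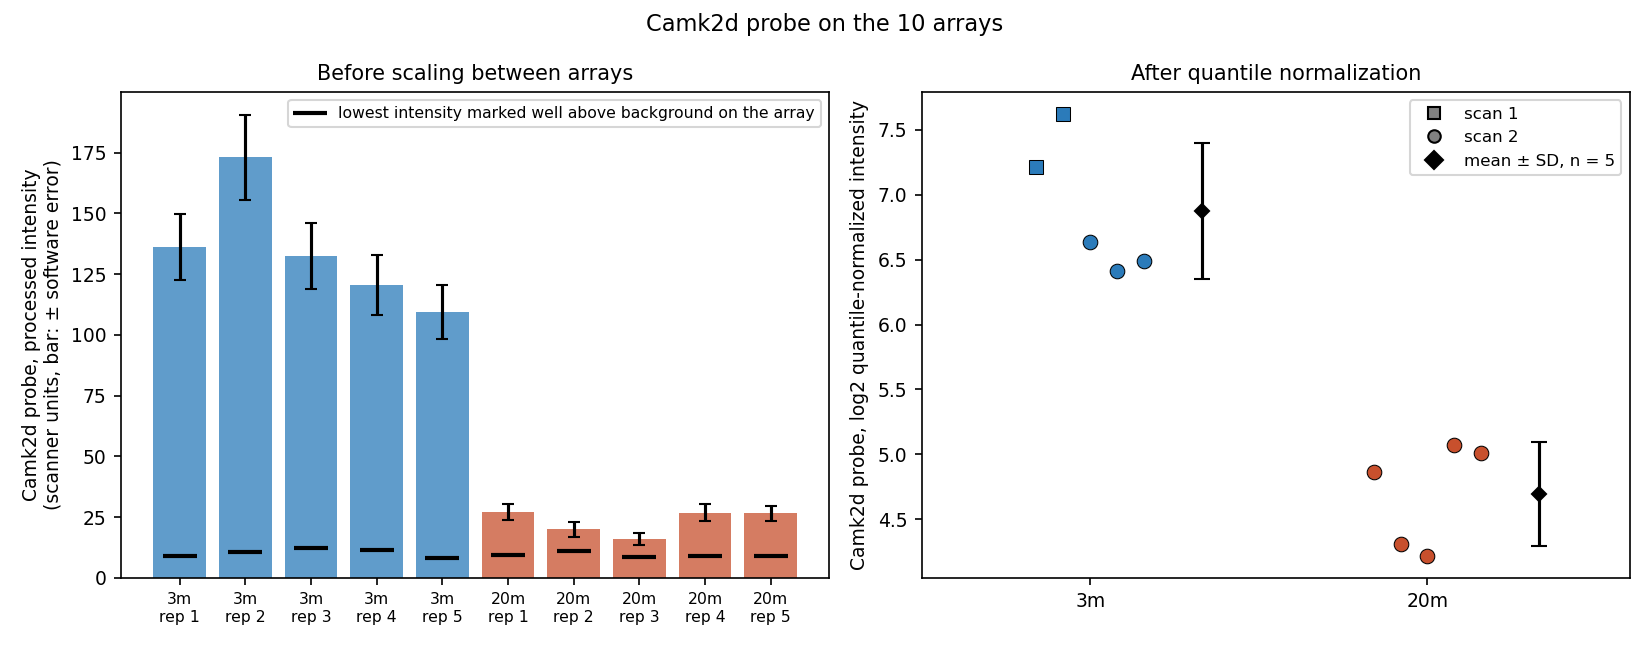
Left, processed intensity of the Camk2d probe on each array (bars, from 0) with the error assigned by the scanner software, and the lowest intensity marked well above background on the same array (black dashes). Right, log2 quantile-normalized intensity of each array by age group, with the mean ± SD of 5 arrays and the scan in which the array was read. Every aged heart lies below every young heart, and the 3m arrays of the first scan, at 7.21 and 7.62, are the highest.

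The probe, although dim in aged hearts, was measured above background on every array. The software marked it as well above background on 5 of 5 young and 5 of 5 aged arrays. The lowest intensity so marked was 8.06 to 12.2 on the young and 8.61 to 11.2 on the aged arrays. In aged hearts the Camk2d probe was 1.78 to 3.01 times as bright as that lowest intensity on the same array, and so near the detection limit, whereas in young hearts it was far above it. The error that the software assigned was 10.1% to 10.2% of the intensity in young and 12.2% to 15.7% in aged hearts. Local background was alike, at 19.0 to 22.0 around the spot in young and 18.0 to 21.0 in aged hearts.

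After quantile normalization the log2 intensity was 7.21, 7.62, 6.63, 6.41 and 6.49 in replicates 1 to 5 of the 3m group and 4.86, 4.31, 4.22, 5.08 and 5.01 in those of the 20m group. The group means were 6.87 ± 0.52 and 4.70 ± 0.40 (SD, n = 5 each), and the lowest young heart lay 1.34 above the highest aged heart. The fitted log2 fold change of aged over young hearts was -2.18 with a standard error of 0.26, a level in young hearts 4.52 times that in aged hearts. Across the whole array, limma called 9.65% of the 16720 mRNA probes tested lower in aged hearts and 4.01% higher. All 5 aged arrays lay below all 5 young arrays at 16.2% of the probes and above them at 8.28%. Camk2d was chosen from probes with this pattern, so nothing is read from its own place among them. By fitted log2 fold change 83 of the mRNA probes tested showed a larger decrease, and the median over all of them was -0.048. The error that the software assigned to a single spot corresponds to 0.15 on the log2 scale in young and 0.18 to 0.23 in aged hearts.

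The spot sits at row 169 and column 136 on every array. The 32 other tested mRNA probes within 5 rows and 5 columns of it had log2 fold changes from -1.23 to 0.89, with a median of -0.12.

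Within the young group the Camk2d level split by scan. The file headers give 2 scan times. Replicates 1 and 2 of the 3m group were read in the first scan and the other 8 arrays, 3 young and 5 aged, in the second. The log2 level averaged 7.41 in the 2 young hearts of the first scan and 6.51 ± 0.11 (SD, n = 3) in the 3 of the second, a difference of 0.90. Both young arrays of the first scan lay above the other young arrays at 40.8% of all mRNA probes tested and at 64.3% of the 690 probes of the sheet. Among the 8 arrays of the second scan alone, the log2 fold change of Camk2d was -1.81 with a standard error of 0.22, and the age groups did not overlap there either.

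The Camk2d level also moved with a measure of RNA ends. Control probes on the array read the 3-end and the 5-end of some housekeeping transcripts, and a higher ratio of 3-end to 5-end signal means that relatively less of the 5-end was labelled. The log2 ratio for mouse GAPDH was 1.71, 1.70, 2.14, 2.16 and 2.17 in replicates 1 to 5 of the 3m group and 2.47, 2.70, 3.07, 2.34 and 2.40 in those of the 20m group. The ratio was higher in every aged than in every young heart. Among the 5 aged hearts the Camk2d levels stood in exactly the reverse order of the GAPDH ratios, from replicate 4 with the lowest ratio and the highest level to replicate 3 with the highest ratio and the lowest level. Among young hearts the order was also the reverse, except that replicates 4 and 5, whose ratios were 2.16 and 2.17, changed places. The young ratios split by scan as well, at 1.70 and 1.71 in the first and 2.14 to 2.17 in the second. Ratio and scan therefore cannot be told apart among young hearts. The reverse order among aged hearts was seen at 7.53% of all mRNA probes tested and at 131 of the 690 probes of the sheet (19.0%), and the same order as the ratio at 4.62%.

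**Figure D2:**
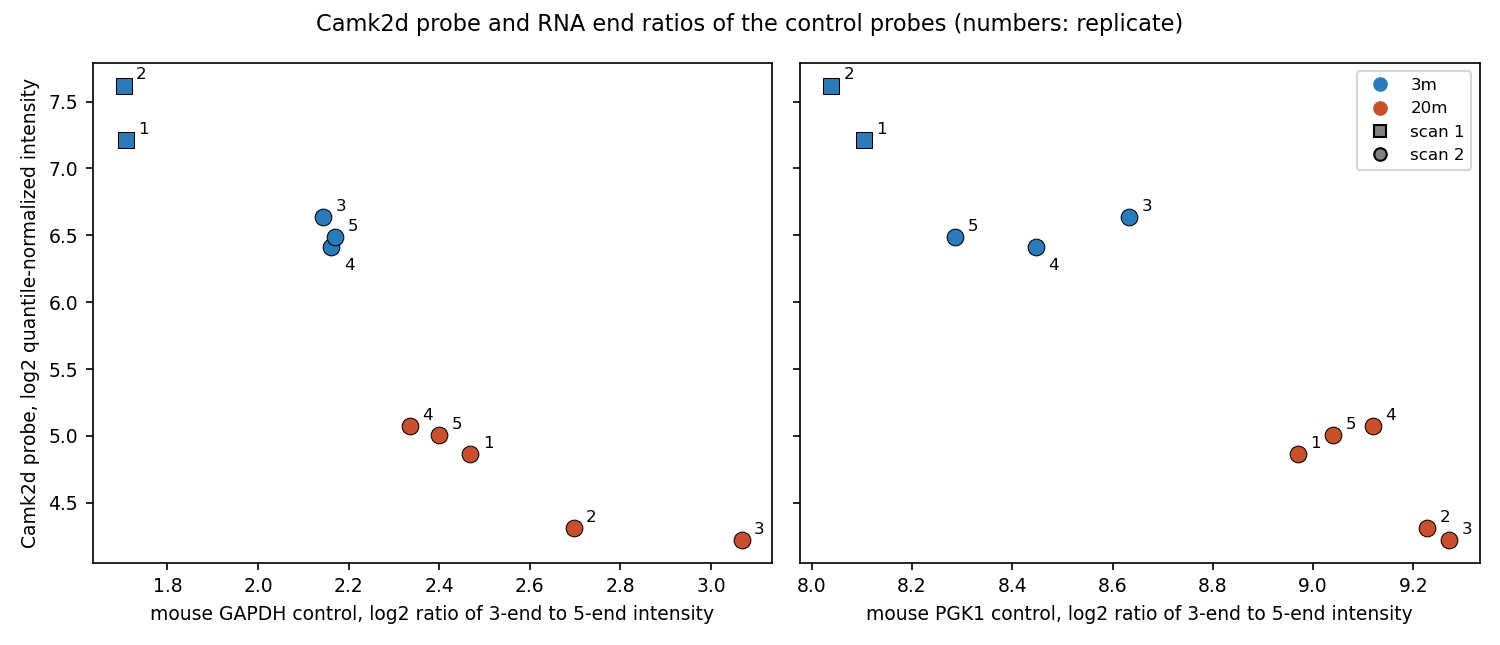
Log2 quantile-normalized intensity of the Camk2d probe against the log2 ratio of 3-end to 5-end intensity of the mouse GAPDH (left) and mouse PGK1 (right) control probes, 1 point per array, numbered by replicate. Levels fall as the GAPDH ratio rises from 1.70 to 3.07, and the age groups occupy separate ranges of both ratios.

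With the GAPDH ratio as a covariate in the fit, the log2 fold change of Camk2d was -1.21 (standard error 0.22), and the fitted level was lower by 1.56 per unit of the log2 ratio (standard error 0.27). The PGK1 ratio, at 8.04 to 8.63 in young and 8.97 to 9.27 in aged hearts, also separated the age groups. Among aged hearts the 2 with the highest PGK1 ratios, replicates 2 and 3, had the lowest Camk2d levels, whereas the other 3 did not follow the reverse order. With 5 hearts per age group no correlation was computed between level and ratio. Because each ratio takes separate ranges in young and aged hearts, its part in the difference cannot be told apart from that of age. The covariate fit held no scan term, although the ratios of young hearts also split by scan.

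With normexp background correction and an added offset of 50, tried together, the log2 fold change of Camk2d was -1.08 (standard error 0.16). Under the 20 alternatives other than normexp and the GAPDH covariate it lay between -2.29 and -1.81. It was negative under every alternative run.

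**Figure D3:**
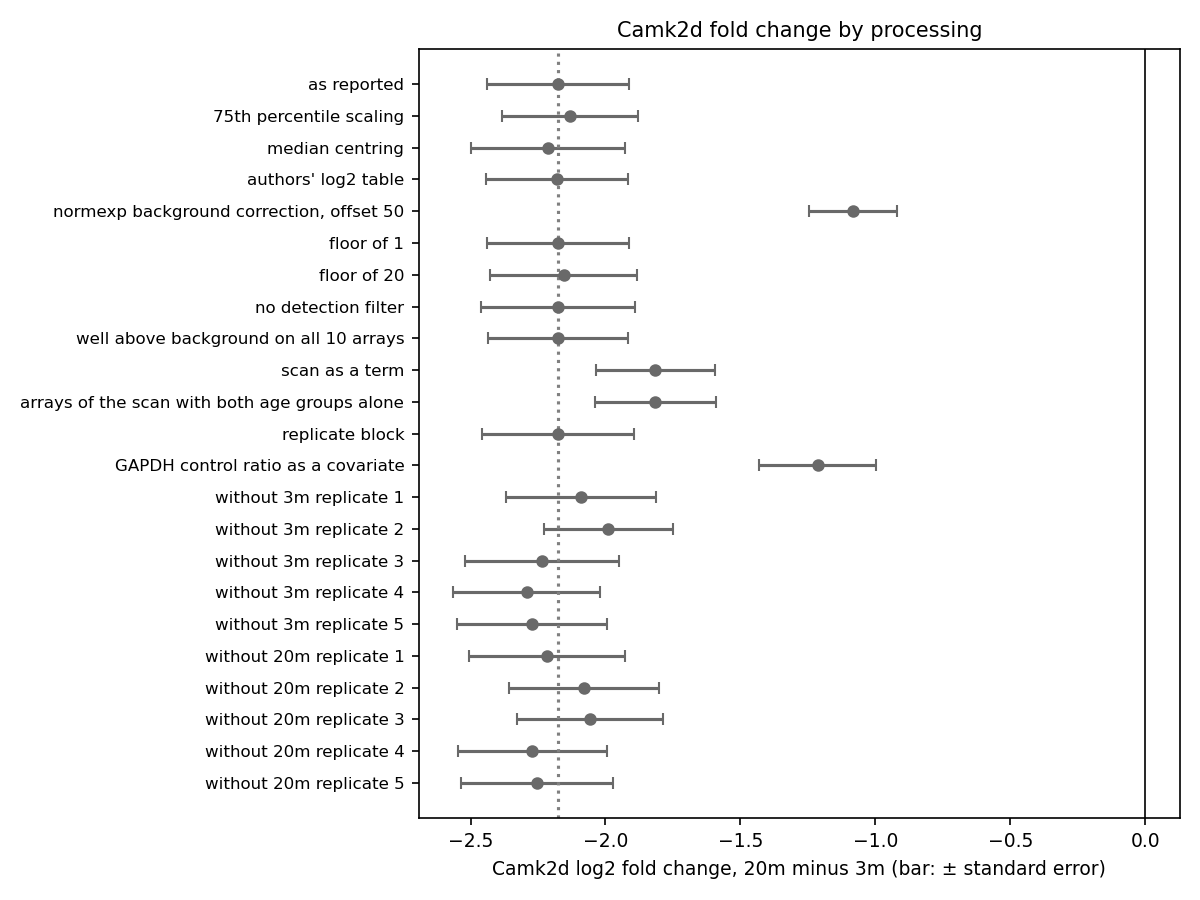
Log2 fold change of the Camk2d probe, aged over young, with its standard error under each processing alternative and with each array left out in turn (dotted line, value as reported, -2.18). All values are below 0, and the smallest sizes are those with normexp correction (-1.08) and with the GAPDH ratio added as a covariate (-1.21).

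The genes around Camk2d were taken from 7 lists of the calcium and CaMKII pathway that together hold 193 other genes. The sheet named 28 probes of 27 of them. It lists only downregulated probes, and the smallest decrease among the 690 held was a log2 fold change of -1.35. The direction of these 28, and a decrease of about that size or more, were fixed by the way they were found. All 28 were called lower by limma, against 9.65% of all mRNA probes tested, and nothing is read from that count. With normexp and the offset of 50, 15 of the 28 were called lower, against 3.26% of all mRNA probes tested in that fit, and the log2 fold changes of all 28 lay between -2.44 and -0.29 (median -1.10). With the GAPDH ratio as a covariate 13 of the 28 were called lower, against 3.19% of all mRNA probes tested in that fit. The 28 were picked for a decrease on these same arrays, so nothing is read from either of these counts. Abcc9, Aplnr, Cacna1a, Chp1, Hspb6 and Tnni2, 6 of the 28, were called lower in both fits. The share of all mRNA probes called lower in both is not given here, so nothing is read from this count. Without either, the median log2 fold change was -1.54 (-1.49 with the 3 probes that were not well above background on any aged array at their bounds), the median over the 690 probes of the sheet being -1.63. For the remaining genes, such as the other CaMKII subunits, calmodulin, the ryanodine receptor and phospholamban, no named probe was used here.

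Among calmodulin and calmodulin-regulated kinases, 2 of 26 genes had a named probe. For Dapk2, a calmodulin-regulated death-associated protein kinase, the log2 fold change was -1.39 (standard error 0.25). It was -0.43 with normexp and -0.55 with the GAPDH ratio as a covariate, and Dapk2 was called in neither fit. Phka2, a regulatory subunit of phosphorylase kinase, which couples calcium to glycogen breakdown, had -1.45 (standard error 0.39). The age groups overlapped at Phka2 and at none of the other 27 pathway probes, while 93.5% of the 690 probes of the sheet had no overlap, so nothing is read from that count. Phka2 was well above background on 3 of the 5 aged arrays, and was called neither with normexp (-0.39) nor with the covariate (0.036).

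Receptors, G proteins and second messenger enzymes upstream of the kinase had the most named genes by count, 9 of 46. For Apln, the ligand apelin, on chromosome X, the log2 fold change was -2.53 (standard error 0.39), and it was well above background on all 10 arrays. Rgs4, which speeds the switching off of G proteins, fell from 6.01 to 3.86 on the log2 scale, and Aplnr, the apelin receptor, from 9.38 to 7.27. Agtr1a, the angiotensin II receptor that signals through calcium, was at -1.65 (log2 fold change, standard error 0.36), and at -0.14 with the GAPDH ratio as a covariate and -0.87 with normexp, where it was not called. Gnai1, an inhibitory G protein subunit, was at -1.49. Prkce, a protein kinase C, Pde1c, a calmodulin-activated phosphodiesterase, and Rgs6 lay between -1.48 and -1.42. Grk6, a receptor kinase, was not well above background on any aged array and was at least 1.88-fold lower there. For this bound, each aged array entered with the dimmest signal still marked well above background there. Where the signal of Grk6 itself was brighter, that signal entered instead. The bound depends on the processing, as the log2 fold change of Grk6 was -0.31 with normexp and -0.15 with a floor of 20.

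Of the genes for calcium entry and sarcoplasmic reticulum cycling, 5 of 47 had a named probe. Cacna1g, a T-type calcium channel, and Trpc1, a cation channel, were not well above background on any aged array. In the values as reported they were at least 1.93-fold and 1.79-fold lower there. These bounds depend on the processing, as their log2 fold changes were -0.29 and -0.34 with normexp. With a floor of 20 they were -0.10 and -0.19. Tmem38b, a potassium channel of the sarcoplasmic and endoplasmic reticulum that balances charge during calcium release, fell from 12.57 to 11.08 on the log2 scale. Atp2c1, a calcium pump of the Golgi, had a log2 fold change of -1.73 (standard error 0.28). This was -0.65 with normexp and -0.75 with the GAPDH ratio as a covariate, and Atp2c1 was called in neither fit. Cacna1a, best known as a neuronal calcium channel, had -1.49 (standard error 0.24).

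Phosphatases oppose or parallel CaMKII, and 3 of the 15 genes listed were named. Ppp3cb, a catalytic subunit of the calcium-activated phosphatase calcineurin, fell from 10.87 to 9.45 on the log2 scale. Ppp1cb, a catalytic subunit of protein phosphatase 1, and Chp1, a calcineurin-like calcium-binding protein, had log2 fold changes of -1.67 and -1.63. All 3 were well above background on all 10 arrays.

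Ion channels and gap junctions contributed 7 probes of 6 of 22 genes. Kcnj2, the inward rectifier that sets the resting potential of ventricular cells, fell from 13.80 to 12.42 on the log2 scale. The atrial channel gene Kcnj3 had 2 probes, with log2 fold changes of -1.63 and -1.52, a difference smaller than the standard error of either (0.24 and 0.21). Gja1 and Gja5, connexins that join neighbouring cells electrically, had -1.93 and -1.47. Abcc9, a subunit of ATP-sensitive potassium channels, had -1.41, and Kcnn2, a calcium-activated potassium channel, -1.71. Kcnn2 was well above background on 1 of the 5 aged arrays, and its value was -0.49 with a floor of 20 and -0.35 with normexp. Of the contractile and small heat shock genes, Hspb6 and Tnni2, 2 of 14, had -1.55 and -1.53. None of the 23 nuclear targets and hypertrophy markers had a named probe.

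**Figure D4:**
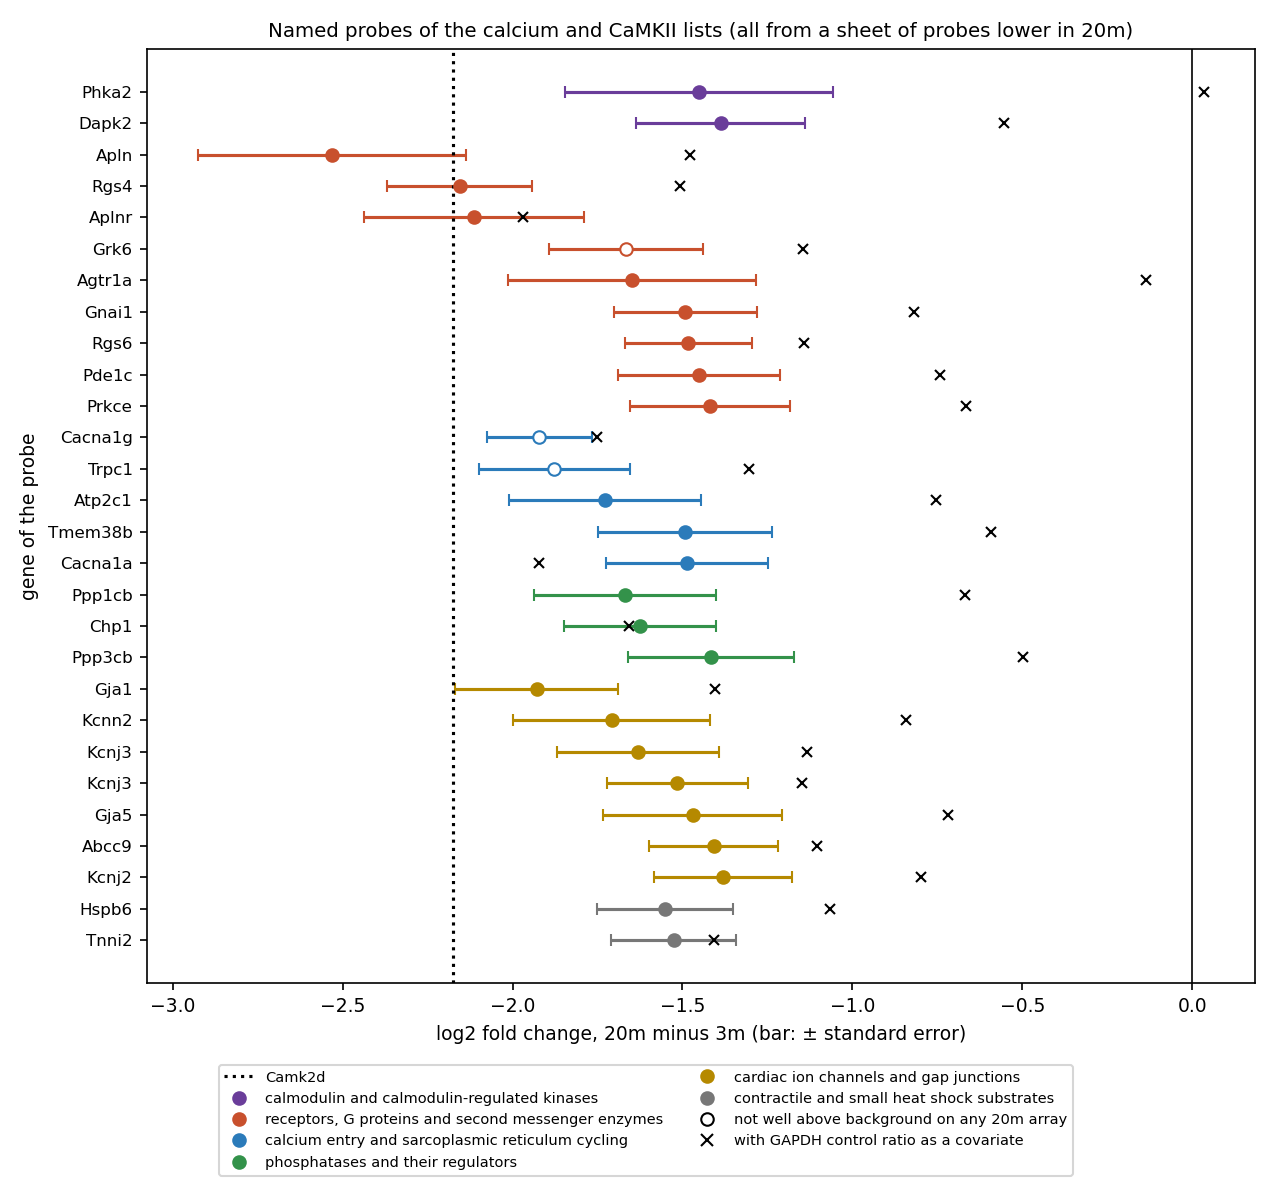
Log2 fold change, aged over young, with its standard error for the 28 probes of the pathway lists that the sheet names, coloured by list (open circles, not well above background on any aged array), and the same with the GAPDH ratio added as a covariate (crosses). The dotted line is Camk2d at -2.18. It marks the value without the covariate, Camk2d with it being at -1.21. Most crosses lie nearer to 0 than the circles, with Phka2 at 0.036.

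With the GAPDH ratio as a covariate, the log2 fold changes of the 28 pathway probes ran from -1.97 to 0.036 with a median of -1.08, and 7 of the 28 had their aged arrays in the reverse order of the ratio: Apln, Agtr1a, Gnai1, Prkce, Ppp1cb, Ppp3cb and Gja5. That order was seen at 19.0% of the probes of the sheet and 7.53% of all mRNA probes tested. With the covariate 23 of the 28 moved by more than the SD between hearts and 1, Phka2, changed sign. The other 4, Aplnr, Cacna1g, Chp1 and Tnni2, moved by less than that SD. Cacna1a moved away from 0, to -1.92. At Cacna1a and Chp1 the deviations of single hearts from their age group mean did not follow those of Camk2d (Pearson r of -0.24 and -0.047 over 10 arrays). This correlation was above 0.5 at 23 of the 28 and at 73.9% of the 689 other probes of the sheet.

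Among the named probes, Btg1, an antiproliferative gene, was most like Camk2d. Over all 10 log2 values the highest Pearson correlations with Camk2d were at Btg1 (0.996), Bmt2 (0.994), Ube3c (0.993), Tspan12 (0.993) and Prdx2 (0.992), against a median of 0.942 over the 689 other probes of the sheet. All 10 values include the age difference by which probes entered the sheet, and Tspan12 was not well above background on any aged array. Over deviations from the age group means, which leave it out, the highest were at Btg1 (0.972), Gabpa (0.961), Srsf2 (0.958), Bmt2 (0.953) and Ube3c (0.951). The median was 0.692 over the sheet and 0.199 over all 16719 other mRNA probes tested, of which 9 without a name here exceeded Btg1. The log2 level of Btg1 averaged 7.37 ± 0.49 in young and 5.44 ± 0.26 in aged hearts (SD, n = 5 each). Srsf2, a splicing factor gene, averaged 11.06 ± 0.29 and 9.31 ± 0.20, and Ube3c, a ubiquitin ligase gene, 6.91 ± 0.42 and 5.14 ± 0.38. The probes were read on the same arrays, in the same scans and with the same scaling, so the correlations are a description only.

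Markers of other cell types that could be named were lower in aged hearts, a direction fixed by taking them from the sheet. Of 14 endothelial markers 8 had a named probe (Aplnr, Calcrl, Car4, Dll4, Esm1, Ets1, Gja5 and Tek), with a median log2 fold change of -1.70. The rest (Pecam1, Cdh5, Kdr, Flt1, Vwf and Emcn) had none, so their levels are not known here and are in no sum below. Tek was not well above background on any aged array, and with Tek at its bound the median was -1.61. Esm1 overlapped between the age groups. With the GAPDH ratio as a covariate the 8 ran from -2.12 to -0.25, with a median of -0.63. The summed normalized intensity of the 8 ran from 1868 to 5326 in young and from 594 to 1323 in aged hearts, and without Car4, whose log2 level ran from 8.25 to 11.62 in young hearts, from 1564 to 2179 and from 396 to 1145. Of 9 lymphocyte markers Cd28 and Igll1 were named, with a sum of 158 to 319 in young and 54.3 to 84.8 in aged hearts. Over deviations from the age group means, the correlation of these 10 probes with Camk2d ran from 0.016 at Igll1 to 0.850 at Tek. No defining marker of cardiomyocytes (11 genes), fibroblasts (8) or macrophages (7) was among the named probes, so the tissue label could not be checked against them. The sheet as held names no probe with a log2 fold change above -1.35, so markers that fell by less could not appear. The part of these markers in the Camk2d difference was not tested.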

How the data were processed

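RNA of 10 hearts was hybridized to 10 one-colour arrays, with 1 array per mouse and 5 per age group. The scanner files deposited by the authors hold, for every spot, a background-subtracted intensity from Agilent Feature Extraction that is not scaled between arrays, the error that the software assigns to it, the local background intensity and quality flags. The file headers give version 11.0.1.1 of the software and the submitters' processing notes give 9.1. A further table by the authors holds log2 values of 60641 probes after normalization between arrays, and served as an alternative.

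Here the processed intensities of these probes were brought to common quantiles, values under 5 were raised to 5, and log2 was taken, without spots marked as outliers. Of 22359 mRNA probes, the 16720 that the software marked well above background in 5 or more of the 10 hearts were fitted with limma 3.58.1 (R 4.3.3), with age group as the only term and Benjamini-Hochberg adjustment over these probes. A probe was called when its adjusted p was under 0.05 and its log2 fold change was 1 or more in size. The script was tested on simulated data. Other steps used Python 3.11.15 with numpy 2.4.6, pandas 2.3.3 and matplotlib 3.10.9. The number of arrays limits the precision.

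Gene names, transcripts, coordinates and probe bases came from the study's annotated sheet of differential mRNA probes, held here for 690 probes, all downregulated. Their fitted log2 fold changes were all -1.35 or lower, whereas 1613 mRNA probes were called lower. Probes that fell by less, or not at all, could therefore not be named. The fold changes and p-values listed there were not used. Camk2d, the 7 gene lists and the 5 marker lists were chosen with earlier results of these data known. A gene of these lists is not reported here and is in none of their counts. Camk2d was chosen for its lower level in aged hearts, so its difference is described without a test. The genes named are Camk2d, the members of the lists that the sheet names, and the 5 probes with the highest Pearson correlation with the Camk2d probe, once over deviations from the age group means and once over all 10 log2 values. Alternatives covered scaling, background correction, the floor, the detection filter, scan, the GAPDH control ratio, a replicate block and leaving out each array.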

Additional observations from a re-analysis of the deposited data

Results flagged for a closer look

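Of 72 age groups of 5 arrays looked at for a single array far from the others, over the Camk2d probe and 35 further named probes, 1 stood out, and chance alone marks about 1 in 20. Trpc1 had a log2 value of 2.49 in replicate 4 of the 20m group, while the other 4 aged hearts were all at the floor (2.32). Trpc1 was not well above background on any of these arrays. No group of the Camk2d probe was marked.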

How the results depend on the processing

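The Camk2d log2 fold change kept its direction under all 22 alternatives. It moved by more than the spread between hearts under normexp correction with an offset of 50 (-1.08) and with the GAPDH ratio as a covariate (-1.21), and the cause was not tested for either. When single arrays were left out it lay between -2.29 and -1.99. The number of mRNA probes called lower, 1613 as reported, was 545 with normexp, 1070 among the arrays of the second scan alone and 534 with the GAPDH covariate, and that called higher, 670 as reported, was 247 with normexp and 432 with a floor of 20. Of the 35 other probes named from the pathway lists or for their correlation with Camk2d, 30 moved by more than the spread between hearts with the GAPDH covariate. Phka2 changed sign there, to 0.036. Probes named only as cell type markers were not among these 35. With normexp 20 of the 35 moved, and with a floor of 20, 7 did. Same-numbered young and aged hearts did not deviate together (correlations of -0.37 to 0.24 across probes), so the numbers pair no samples. With the replicate block the log2 fold change of Camk2d was -2.18 (standard error 0.28), and 1612 probes were called lower and 669 higher. In aged hearts the Camk2d signal was 1.78 to 3.01 times the lowest signal well above background.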
